A study of Mus musculus with 6 samples.

Results

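The regions described here carried a Grhl3 peak in both replicates of embryonic skin and in imiquimod-treated adult epidermis, and no peak in depilated adult epidermis. They numbered 609 among 13035 merged regions of the series. Members were chosen by 3 steps. Peaks of E16.5 replicate 1 that a replicate 2 peak overlapped by 1 bp or more stood for the embryo. These were merged with the depilation and imiquimod peaks where peaks overlapped or touched. Merged regions on autosomes, 5 kb or narrower, that held an embryonic and an imiquimod peak and no depilation peak were then kept. Before the limits on chromosome and width there were 610 such regions, of which 1 lay on chromosome X and 0 were wider than 5 kb.

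Binding of Grhl3 was measured by ChIP-seq with a custom antibody in mouse skin, and the labels describe 4 Grhl3 and 2 input libraries. The E16.5 group holds 2 replicates of whole back skin from embryos. The depilation group is 1 library from adult epidermis, labelled day 4, and the imiquimod group 1 library from adult epidermis with no day given. Adult epidermis was parted from dermis with dispase, so the embryonic and adult groups differ in tissue, age and treatment together, and these cannot be told apart. Genotype, strain and exact adult age are not given in the labels. An unwounded adult Grhl3 library was not analysed here, so a peak in imiquimod-treated epidermis is not shown to depend on imiquimod.

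Grainyhead-like factors are DNA-binding proteins that act as activators and repressors in epithelia. Grhl3 is the family member best known for the late steps of epidermal differentiation, in which the cornified layer and its lipids form the skin barrier, and for closure of the neural tube and of wounds. Imiquimod activates Toll-like receptors and causes a psoriasis-like inflammation of mouse skin with thickened epidermis. Depilation removes the hair shafts, disturbs the barrier and starts a new hair cycle. A ChIP-seq peak marks a place where the antibody enriched DNA and gives no information on whether a nearby gene changed.

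All values below describe peak lists, and the choice of members used each of the 4 lists. Differences between region classes were therefore not tested, and intervals are exact 95% binomial (Clopper-Pearson) intervals that cover counting error only. The E16.5 lists held 11619 and 9685 peaks, the depilation list 4820 and the imiquimod list 7974. Library depth is unknown. The highest score was 1588.84 in replicate 1 and 3100 in both replicate 2 and the depilation list, but 249.45 in the imiquimod list, so raw scores were not compared between the imiquimod list and the others. The lowest score was 50.01, 50, 50.01 and 52.35 in the same order. A region without a depilation or imiquimod peak may therefore hold signal below that list's threshold. The highest false discovery rate in the imiquimod list was 10%. Members came near it at both ends of the score, with 10% at 52.38 and 9.8% at 247.44, against 2.9% at 112.74. Whether peaks above the list's highest score were left out was not tested, so a region without an imiquimod peak is not shown to lack signal.

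Of the 3695 E16.5 regions on autosomes and 5 kb or narrower, 609 were reused after imiquimod alone, 16.48% (15.3 to 17.7). Regions in all 3 conditions numbered 748 (20.2%), those reused after depilation alone 665 (18%) and those in E16.5 alone 1673 (45.3%). Among the 2282 E16.5 regions without a depilation peak, members made up 26.7%. Counted from the adult side, the members made up 7.74% of 7865 imiquimod regions. Of the E16.5 regions that also had an imiquimod peak, 44.9% lacked a depilation peak. These shares restate how the classes were formed and are given as the background for the counts that follow.

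The median score of members in both embryonic lists was below that of regions in all 3 conditions and above that of regions in E16.5 alone. In E16.5 replicate 1 their score ranged from 50.85 to 393.48, with a median of 116.92. In replicate 2 it ranged from 50.52 to 255.56, with a median of 80.98. The highest scores in replicates 1 and 2 were 911.37 and 3100 for E16.5 and depilation and 313.59 and 309.71 in E16.5 alone. In all 3 conditions they were 484.39 and 505.11. A score percentile is the rank of a peak within its own list, from 0 to 100. By percentile the classes overlapped over nearly their whole range in both replicates. The median percentile of members was 80.6 in replicate 1 and 72.7 in replicate 2. Regions in all 3 conditions had medians of 87.5 and 77.2, regions of E16.5 and depilation 76.3 and 70.5, and regions in E16.5 alone 65.8 and 63.1. The order of the class medians was the same in both replicates. The median of members was 4.35 and 2.20 points above that of regions of E16.5 and depilation in replicates 1 and 2, and 14.9 and 9.58 points above that of regions in E16.5 alone. These steps were not tested.

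**Figure D1:**
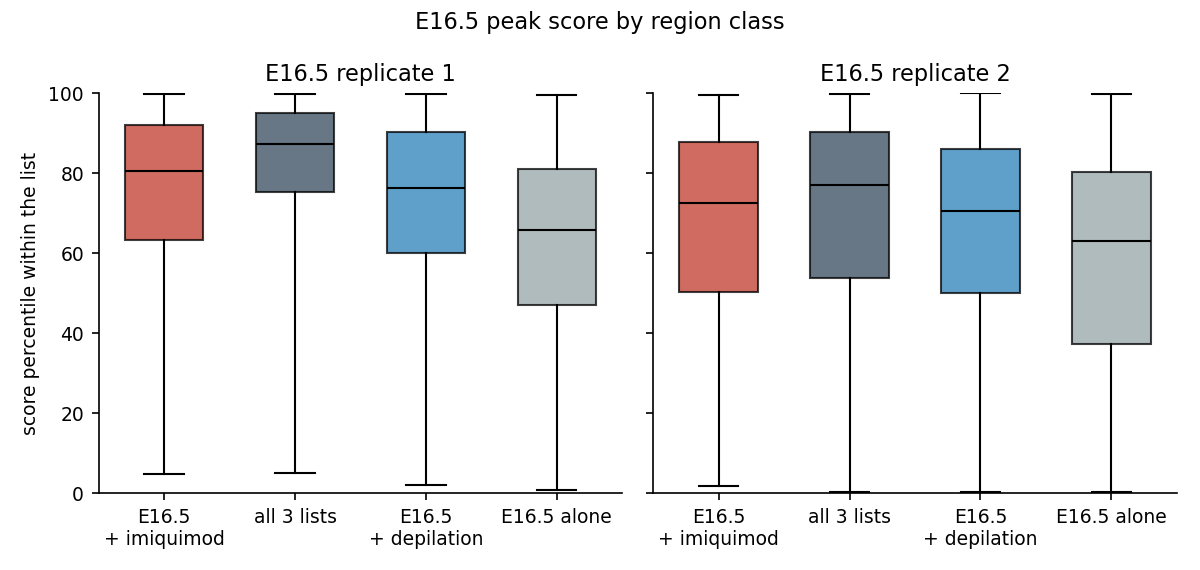
Score percentile (y axis, 0 to 100 within each list) of E16.5 regions by class in replicates 1 and 2. Boxes span the quartiles, lines mark the median and whiskers reach the lowest and highest region. Members (red) have medians of 80.6 and 72.7, between the regions in all 3 lists and those in E16.5 alone.

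The members were not all strong embryonic sites. Of the 609, 199 reached a percentile of 75 or more in both replicates, or 32.7% (29.0 to 36.6), against 43.7% of the regions in all 3 conditions, 26.8% of those of E16.5 and depilation and 15.8% of those in E16.5 alone. Replicate 1 placed 87 members below its own median peak, and replicate 2 placed 152 there. The replicates often ranked a member differently. The percentile in replicate 1 exceeded that in replicate 2 for 365 members (59.9%). The share was 69.1% in all 3 conditions, 58.6% for E16.5 and depilation and 53.8% in E16.5 alone. The middle 50% of differences ran from -8.87 to 24.8 points in members and from -11.4 to 25.5 over all E16.5 regions. Across the members, the scores of the replicates had a Spearman's rho of 0.28, given as a description over 609 regions of the same 2 libraries. Across the regions in all 3 conditions it was 0.26.

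Members made up a larger share of the stronger embryonic sites than of the weaker ones, a difference that was not tested. The regions were cut into 5 equal groups by E16.5 percentile, the mean of both replicates. In the lowest group 85 of 739 regions were members, or 11.5% (9.29 to 14.0). The shares in the next 2 groups were 15.2% (12.6 to 17.9) and 14.3% (11.9 to 17.1). In the 2 highest groups they were 20.6% (17.7 to 23.7) and 20.8% (17.96 to 23.9). The share of members was thus level over the last 2 groups. Over the same groups regions in all 3 conditions went from 24.8% to 36.3%, and those in E16.5 alone from 36.5% to 23.8%. Regions of E16.5 and depilation stayed between 14.5% and 21.2% in every group. The share of members also moved with peak width. In 5 groups by the width of the replicate 1 peak, narrowest first, it was 7.41%, 13.1%, 18.8%, 22.9% and 20.2%. Strength and width were not separated here, and the part of each was not tested.

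The share of regions with an imiquimod peak was lower where the depilation peak was missing, in each of the 5 groups by E16.5 percentile. The choice of members used both peaks, so this is a description. Over all E16.5 regions it was 26.7% without a depilation peak and 52.9% with one. In the lowest group these shares were 15.0% (12.2 to 18.2) and 37.8% (30.5 to 45.5). In the highest group they were 46.7% (41.2 to 52.2) and 65.5% (60.7 to 70.1). Over the 5 groups the gap lay between 18.9 and 24.7 percentage points. With groups by the score of replicate 1 alone the gap lay between 13.3 and 27.7 points, and with replicate 2 alone between 21.3 and 27.5 points. Peak width moved with this result. With groups by the width of the replicate 1 peak the gap lay between 14.9 and 21.1 points in the 4 wider groups. It was 3.90 points in the narrowest, where the shares were 8.72% (6.63 to 11.2) and 12.6% (7.07 to 20.3). The part of width in the result was not tested.

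**Figure D2:**
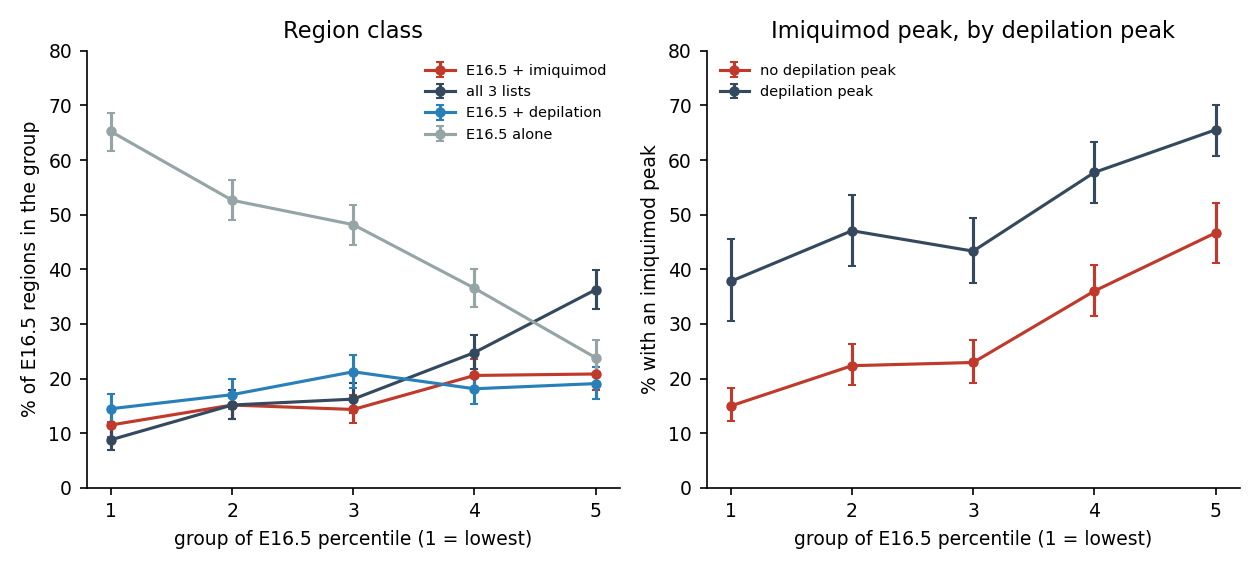
Left, percent of E16.5 regions (y axis) in each class by score group, 5 equal groups ordered by E16.5 percentile (x axis, 1 is lowest). Right, percent with an imiquimod peak in the same groups, split by whether a depilation peak is present. Error bars are exact 95% binomial intervals. Members go from 11.5% to 20.8%, and the gap on the right lies between 18.9 and 24.7 points.

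The imiquimod peaks of members held more tags than those in imiquimod alone, at a slightly lower median fold enrichment. The imiquimod list alone gives the number of tags in a peak and the authors' fold enrichment over the caller's background. A member's imiquimod peak held 22 to 103 tags, with a median of 43. That of a region in all 3 conditions held a median of 51 tags, and that of a region in imiquimod alone a median of 26. More than the list median of 29 tags was found in 532 members, or 87.4% (84.5 to 89.9), in 93.2% of the regions in all 3 conditions and in 37.7% of those in imiquimod alone. Regions of both adult lists without an E16.5 region held a median of 42 tags, with 83.9% above the list median, so more tags than in imiquimod alone were not found in members only. Both this class and imiquimod alone lack an E16.5 peak shared by the replicates, but may hold a peak of a single replicate. When a peak in either E16.5 replicate sufficed, regions in all 3 conditions rose from 748 to 1142, and members from 609 to 1078. The fold enrichment of members ran from 3.26 to 12.31 with a median of 6.46. The medians were 6.465 in all 3 conditions and 6.72 in imiquimod alone. Of the members, 266 exceeded the list's median fold of 6.65, or 43.7% (39.7 to 47.7). The share was 43.6% (40.0 to 47.2) in all 3 conditions and 51.5% (50.2 to 52.7) in imiquimod alone. The members' imiquimod peaks were also wider than those in imiquimod alone, with medians of 359 bp and 250 bp, and per 100 bp of peak they held a median of 11.8 and 10.7 tags. Per length, the gap in tags was thus smaller than per peak. The score of the imiquimod peak followed the tags, with a median of 97.31 in members, 116.575 in all 3 conditions and 64.555 in imiquimod alone. The median false discovery rate was 4.16% in members, 4.19% in all 3 conditions and 5.90% in imiquimod alone. A rate of 5% or less was found in 425 members (69.8%) and in 64.2% of the regions in all 3 conditions. It was found in 66.1% of the regions of both adult lists without an E16.5 region and 40.3% of those in imiquimod alone. The rate did not fall steadily with the score and neared 10% at both ends of it, so these shares do not rank the classes by strength. An imiquimod percentile of 75 or more was reached by 48.3% of members and 62.4% of the regions in all 3 conditions.

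**Figure D3:**
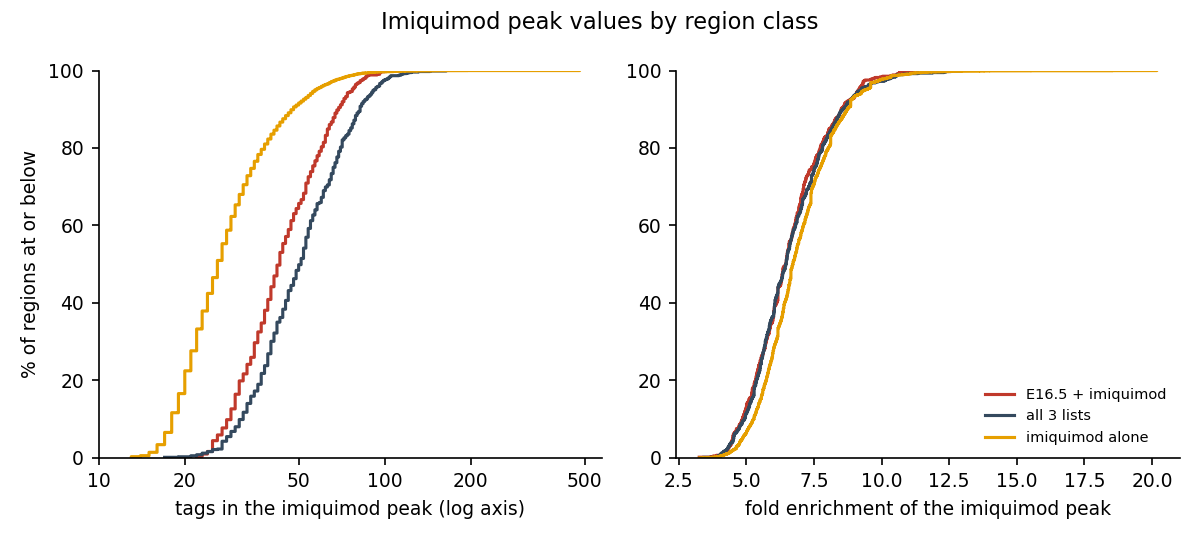
Cumulative share of regions (y axis, percent) by tags (left, log axis) and by fold enrichment (right) of the imiquimod peak. Members (red) lie between the other classes in tags, with a median of 43 against 51 and 26. In fold enrichment the curves of members and of all 3 conditions have medians of 6.46 and 6.465, and that of imiquimod alone 6.72.

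The strength of the embryonic and imiquimod peaks was only weakly related within the members. Spearman's rho between the imiquimod tags and the E16.5 score was 0.21 in both replicates, and between the fold enrichment and the score it was -0.02 in both. The points share their libraries, and peaks with more tags also tend to be wider. A percentile of 75 or more in both E16.5 lists and in the imiquimod list was reached by 114 members, or 18.7% (15.7 to 22.0), against 28.3% of the regions in all 3 conditions. All 3 percentiles were under 50 in 11 members, and in 2 regions of all 3 conditions. An imiquimod percentile of 75 or more with both E16.5 percentiles under 50 occurred in 11 members, and the opposite pattern, strong in both replicates and under 25 after imiquimod, in 7.

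In most members the imiquimod peak lay wholly inside the replicate 1 peak, in 504 of 609, or 82.8% (79.5 to 85.7). The share was 89.4% in regions of all 3 conditions. The overlap of the imiquimod and replicate 1 peaks had a median of 352 bp. The summit fell within the replicate 1 peak in 597 members, or 98.0% (96.6 to 99.0), and within the narrower replicate 2 peak in 502, or 82.4% (79.2 to 85.4). In all 3 conditions these shares were 99.6% and 80.7%. Overlap with replicate 1 was part of the choice of members. Overlap of the imiquimod peak with the best scoring replicate 2 peak was present in 571 members, or 93.8% (91.5 to 95.5). In all 3 conditions it was present in 92.5%. This overlap was not asked for directly. Both peaks had to meet replicate 1 peaks of the same region, so a high share was largely set by the choice. The median distance from the imiquimod summit to the peak centre was 92 bp in replicate 1 and 83 bp in replicate 2. The summit was within 100 bp of the replicate 1 centre in 319 members (52.4%) and of the replicate 2 centre in 349 (57.3%). The distance between the centres of the 2 embryonic peaks themselves was 81 bp. Summits of the adult list were thus about as far from an embryonic centre as the centres of the embryonic replicates were from each other. In regions of all 3 conditions, whose peaks were wider, the distances were 99 bp and 103.5 bp. More than 1 imiquimod peak lay in 24 members (3.94%) and in 6.95% of the regions in all 3 conditions. More than 1 replicate 2 peak lay in 58 members (9.52%). That share was 10.8% in all 3 conditions, 5.56% for E16.5 and depilation and 4.48% in E16.5 alone.

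Most members were far from any depilation peak. The nearest depilation peak lay at a median of 141.1 kb from a member and at 121 kb from a region in E16.5 alone. It was within 1 kb of 21 members, or 3.45% (2.15 to 5.22), and of 3.53% of the regions in E16.5 alone. Within 10 kb the counts were 41 members (6.73%) and 123 regions (7.35%), and within 100 kb 249 (40.9%) and 746 (44.6%). The surroundings of members thus held depilation peaks at nearly the same rate as those of embryonic sites found in neither adult list. The same count for the opposite class, imiquimod peaks near the regions of E16.5 and depilation, gave 19 of 665 (2.86%) within 1 kb.

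**Figure D4:**
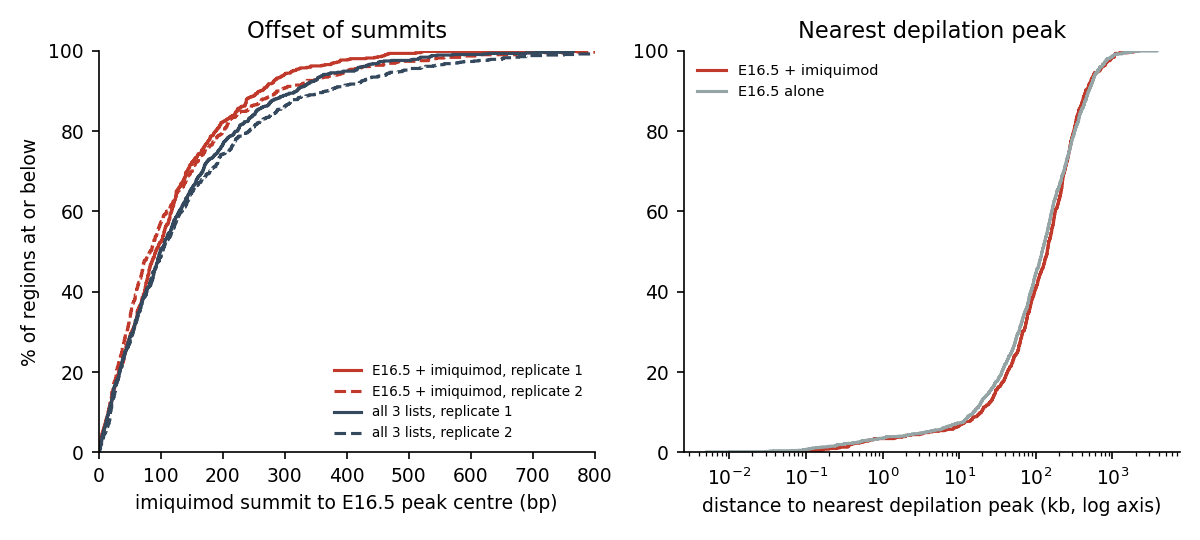
Left, cumulative share of regions (y axis, percent) by distance in bp from the imiquimod summit to the centre of the E16.5 peak in replicate 1 (solid) and replicate 2 (dashed). Right, cumulative share by distance to the nearest depilation peak (kb, log axis) for members and for regions in E16.5 alone. Median offsets of members are 92 bp and 83 bp, and the median distances on the right are 141.1 kb and 121 kb.

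A few members sat just inside the rule. The 3 nearest to a depilation peak lay 30 bp, 97 bp and 131 bp from it. The nearest was chr13:53075931-53076541, on mm9 as all positions here, with scores of 91.21 and 90.93 in the E16.5 replicates, 65.49 after imiquimod, and the lowest fold enrichment of any member, 3.26. The depilation peak beside it scored 64.59. The second, chr11:97141108-97141855, scored 160.15, 94.03 and 116.36, and its neighbouring depilation peak 64.80. The third, chr4:136833326-136834161, scored 119.98, 54.68 and 97.68, beside a depilation peak of 62.87. All 3 depilation peaks were slightly above the list median of 60.40. Just outside the rule, the smallest overlap of a depilation peak was 64 bp, in chr3:9608962-9610170. There the depilation peak lay 490 bp from the imiquimod peak, at another place in the same embryonic peak. In 34 of the 748 regions of all 3 conditions the depilation and imiquimod peaks did not overlap each other. On the imiquimod side, 3 members rested on an overlap of 50 bp or less, the smallest 12 bp, and 12 of the 1673 regions in E16.5 alone had an imiquimod peak within 100 bp.

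Member regions were 298 to 2025 bp wide, with a median of 769 bp, so none came near the limit of 5 kb. The widest was chr15:36722039-36724063, where a single replicate 1 peak covered the region. It scored 147.64 and 78.82 in the E16.5 replicates and 82.25 after imiquimod. The next were chr2:146047632-146049521 and chr5:76732631-76734307, each with 2 imiquimod peaks. On chromosome 2 the replicates differed most among these, with scores of 344.08 and 66.28. The chromosome 5 region was strong in each list, with 170.82 and 132.86 in the embryo and 171.30 after imiquimod.

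The 10 members with the highest mean of E16.5 and imiquimod percentiles lay on 7 chromosomes. The first was chr1:39633576-39634538, with a score of 213.20 in E16.5 replicate 1, 207.83 in replicate 2 and 216.89 after imiquimod, from 96 tags at a fold of 6.17. Its percentile was 97.2 or more in each of these lists, and its nearest depilation peak lay 40.4 kb away. The second was chr7:133415792-133416364, the narrowest of the 10, with scores of 321.51, 129.29 and 224.99, 75 tags and a fold of 9.02. It had the highest replicate 1 score and the highest fold of the 10. The third was chr1:95650860-95651844, with scores of 216.89, 168.87 and 198.46, and again 96 tags. The fourth, chr3:79090257-79091615, scored 245.93, 181.98 and 186.54, and its imiquimod summit lay 34 bp and 38 bp from the embryonic centres. It was the widest of the 10, at 1359 bp.

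The fifth in this order, chr3:136332512-136333508, scored 204.43, 192.09 and 185.13, and was the most isolated from depilation peaks, the nearest being 978.1 kb away. The sixth, chr17:34808421-34809768, scored 218.83, 134.56 and 187.75. The next 2 were ranked higher by replicate 2 than by replicate 1. They were chr12:8304932-8305760, with 137.03, 242.91 and 204.90, and chr2:91803297-91804112, with 138.29, 155.95 and 220.20. The ninth, chr9:42913542-42914316, scored 283.13, 142.05 and 161.24, and the tenth, chr2:3035376-3036248, scored 140.91, 134.52 and 220.68. Across the 10, the imiquimod peak held 58 to 96 tags at folds of 6.17 to 9.02, and 8 exceeded the list's median fold of 6.65. The false discovery rate of these 10 peaks was 4.57% to 8.67%, above the members' median of 4.16% although these were among the best scoring peaks. The nearest depilation peak lay 40.4 to 978.1 kb away.

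The members with the highest fold enrichment after imiquimod were a different set, with 0 of 5 among those 10. The highest was chr5:96590006-96591436, at 12.31-fold from 57 tags. Its embryonic scores were 184.23 in replicate 1 and 58.10 in replicate 2, and it held 2 imiquimod peaks, the stronger with its summit 465 bp from the replicate 1 centre. The adult summit there lay toward the side of a wide embryonic peak. The others were chr5:123794114-123795349 at 11.47-fold, chr4:117555777-117556375 at 10.80-fold, chr16:90386169-90387100 at 10.66-fold and chr11:7113314-7114071 at 10.64-fold. The embryonic percentiles ran from 63.5 to 80.5 over the 5, with a median of 70.1, against a median of 74.9 over all members. The chromosome 4 region was the closest of the 5 to a depilation peak, at 3.31 kb. In all, 10 members had a fold of 10 or more.

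At the other end, the 5 members with the lowest mean percentile held 26 to 31 imiquimod tags at folds of 4.50 to 6.69. The lowest was chr13:113254108-113254731, with scores of 51.02 and 51.62 in the embryo and 55.26 after imiquimod. All 3 values were close to the lowest of their lists, yet the imiquimod summit lay 1 bp from the replicate 1 centre. The next were chr2:26997719-26998272, with 57.11, 58.62 and 54.72, and chr2:166630946-166631611, with 57.87, 63.29 and 53.20. For chr11:49659925-49660748 and chr19:3388781-3389453, replicate 1 scores of 105.50 and 83.31 stood beside replicate 2 scores of 53.29 and 53.44. In these 5 the imiquimod summit was at most 79 bp from the replicate 1 centre.

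Members were spread over all 19 autosomes. Their share of a chromosome's E16.5 regions ran from 11.7% on chromosome 7 (27 of 231, 7.85 to 16.55) to 21.9% on chromosome 13 (35 of 160, 15.7 to 29.1). The interval held the overall share of 16.48% on 19 of 19 autosomes. Chromosome 2 held the most members, 64, and chromosome 4 held 59. Each had 20.4% and 20.3% of its E16.5 regions in the class. The 20 members on chromosome 18 were counted and are not named.

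**Figure D5:**
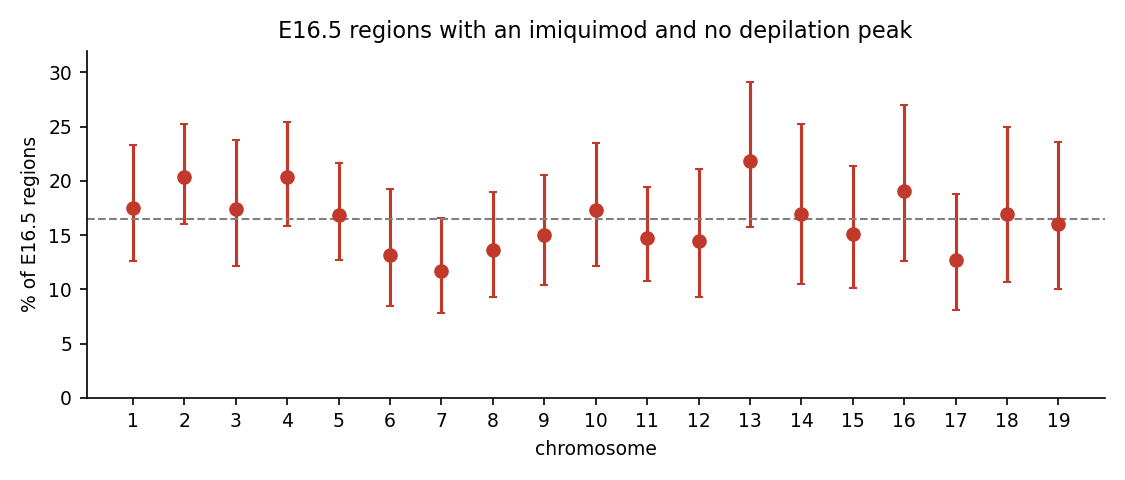
Share of E16.5 regions on each autosome (y axis, percent) that carried an imiquimod peak and no depilation peak, with exact 95% binomial intervals. The dashed line is the overall share of 16.48%. Shares run from 11.7% on chromosome 7 to 21.9% on chromosome 13.

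Some members came in pairs. A second member lay within 10 kb of 28 members, or 4.60%, in 14 pairs on 11 chromosomes, and no run held more than 2. Of the regions in all 3 conditions 1.07% had another of their own class within 10 kb, of those of E16.5 and depilation 2.41% and of the more numerous regions in E16.5 alone 5.74%. Of the 64 members with any E16.5 region within 10 kb, the nearest was another member in 21 (32.8%), in E16.5 alone in 30, in all 3 conditions in 8 and of E16.5 and depilation in 5. Of all E16.5 regions 16.48% are members. Regions of E16.5 and depilation, 18% of all, had their own class nearest in 16 of 56 (28.6%). Within 100 kb the nearest region was another member for 58 of 282 members (20.6%). In 6 of the 14 pairs the gap was under 1 kb, and whether these are single enriched stretches called as separate peaks was not tested. The following 3 pairs were chosen after their values were seen. The closest, chr13:112598057-112599853, had a gap of 30 bp and imiquimod folds of 4.03 and 6.82. In chr17:4994583-4996863 the gap was 39 bp and the folds were 7.41 and 7.49. The pair chr16:22161795-22163630 was the only 1 of the 14 with a depilation peak inside its span, between members of E16.5 percentiles 32.9 and 97.4.

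Other imiquimod regions also lay near members. Within 10 kb there was another one for 67 members, or 11%, against 7.09% of the regions in all 3 conditions, 7.07% of those of E16.5 and depilation and 7.83% of those in E16.5 alone. Within 100 kb the shares were 49.9%, 52.7%, 51.7% and 51.0% in the same order. The shares lay further apart at 10 kb than at 100 kb, and 28 of the 67 are the paired members given above.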

How the data were processed

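Peak lists of 4 Grhl3 ChIP-seq libraries were used, 1 list per library. Per the submitters' processing notes, the authors used Bowtie 0.12.7 and bedtools 2.11.2 on build mm9. Caller settings, and whether input was used, are not stated in the labels or headers. The authors deposited a peak score for each E16.5 and depilation peak. Per the file headers, the deposited imiquimod list adds tag counts, fold enrichment and a false discovery rate in percent. Its score header is lost, and its score was read as the same kind. Depth is unknown, since read totals were not used here.

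BED starts were raised by 1, and peaks overlapping by 1 bp or touching were merged. The best scoring peak counted where a list had several in 1 region. Merging was tested on simulated data, and bedtools 2.31.1 gave the same 609 members. Python 3.11.15, numpy 2.4.6, pandas 2.3.3, scipy 1.17.1 and networkx 3.6.1 were used.

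Members and comparisons were chosen with earlier results of these data known. Nothing in the labels ties the E16.5 replicates to separate embryos or litters. Named regions are the 10 members with the highest and the 5 with the lowest mean of E16.5 and imiquimod percentiles, the 5 with the highest fold, the 3 nearest a depilation peak and the 3 widest, leaving out chromosome 18. Genes and sequence motifs on mm9 were not analysed here. Alternatives varied the overlap, thresholds, E16.5 set, width limit and list length.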

Additional observations from a re-analysis of the deposited data

How the results depend on the processing

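The number of members stayed within 1.5 times 609 except where replicate 2 was left out or a peak in either E16.5 replicate sufficed. It was 1004 without E16.5 replicate 2, and 1078 when any E16.5 peak sufficed, an alternative chosen after seeing the data. The leave-one-out counts ran from 683 to 1004, and 584 of the 609 members were kept without replicate 1. The share of E16.5 regions ran from 7.27% to 8.79% without a replicate, and was 6.37% with either, as the E16.5 set grew. It was 19% in the better scoring 50% of each list (425 members, 329 of them among the 609, since weak depilation peaks leave too, against 356 regions of E16.5 and depilation), and 11.7% at an imiquimod FDR of 5% or less. That limit is not simply stricter, since 9 of the 10 best members named have a higher FDR. With the imiquimod list shortened to 4820 peaks, also chosen after seeing the data, it was 14.2% (525 members), against 737. In the main setting the counts were 609 and 665, so the order of these classes turned in the better scoring 50%. Median fold stayed between 6.405 and 6.73. No paired analysis was possible because 1 group alone has replicate numbers and no test was run. The alternatives on motifs and gene starts were not run.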

Other observations

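The member left out for its chromosome lay on X, at chrX:101395133-101395822. It scored 95.98 and 75.93 in the E16.5 replicates and 142.94 after imiquimod, from 49 tags at a fold of 8.12, above the members' medians of 43 tags and 6.46-fold. Leaving out members with a depilation peak within 10 kb, an alternative chosen after seeing the data, kept 568 of them. Their median fold was 6.43.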
